A study of Mus musculus with 2 samples.

Results

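Ribosome-poor microglia without Gm35188 were cells of the mouse lumbar spinal cord in which under 2.5% of the UMIs came from ribosomal protein (RP) genes and in which the long noncoding RNA Gm35188 was read no more than once. A UMI is a tag that marks 1 captured RNA molecule, so that copies made by PCR count once. Cells entered the comparison with over 300 genes read and a mitochondrial share of UMIs under 5%, and the members were then chosen by their RP share and by their Gm35188 count. The rule found 341 of 1147 kept cells in the control library (29.7%, exact Clopper-Pearson 95% interval 27.1 to 32.5) and 114 of 445 in the 4E-BP1-cKO library (25.6%, 21.6 to 29.9). RP share and Gm35188 level therefore describe the selection and are not results. The other ribosome-poor cells, with 2 or more UMIs of Gm35188, numbered 276 and 80, and 530 and 251 cells had an RP share of 2.5% or more.

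The series held 2 libraries of microglia sorted as CD45lo CD11b+ CX3CR1+ after collagenase IV and Percoll, read from the 3′ end on the 10x platform. The control mice carried floxed Eif4ebp1 (Eif4ebp1 fl/fl, labelled WT), and the 4E-BP1-cKO mice carried the same floxed gene with TMEM119CreERT2, a tamoxifen-activated Cre recombinase expressed from the Tmem119 promoter of microglia. Both groups were 8 to 10 weeks old and had received 4-hydroxytamoxifen as pups, between postnatal days 4 and 9. There was 1 library per genotype and the number of mice behind each was not given in the sources used here, so library and genotype cannot be told apart, no difference has a replicate check, and every interval below covers counting error only. Eif4ebp1 itself had 15 UMIs in the control members and 1 in the 4E-BP1-cKO members (17.6 and 4.44 CPM), against 20.3 and 33.1 CPM in all other kept cells, and reads from the 3′ end do not check the loss of the floxed exon.

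Microglia are the resident macrophages of the central nervous system, kept in their surveying state by signals such as CSF1 and TGF-beta, and they release cytokines, among them the anti-inflammatory IL-10, when they are challenged. Messenger RNAs for ribosomal proteins and for several translation factors carry a 5′ terminal oligopyrimidine (TOP) tract, and their translation depends on mTORC1, the kinase that inactivates 4E-BP1. They are short, stable and cytoplasmic, whereas Malat1 and other long noncoding RNAs stay largely in the nucleus.

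The members carried the marker genes of microglia, at a lower level than the rest. At least 3 of 12 microglia markers were read in 97.1% of the control members and 90.4% of the 4E-BP1-cKO members. The summed level of the 12 markers was 7213 CPM (the UMIs of a gene scaled to the same total in every class) in the control members and 7032 in the 4E-BP1-cKO members, against 16607 and 15624 in cells with an RP share of 2.5% or more. The ribosome-poor cells with Gm35188 were nearer to the members, at 8527 and 8802 CPM. Of 12 other cell types and a set of proliferation genes, each with 5 to 8 markers, 3 markers of the same type were read together in 1 control member, for oligodendrocytes, and in 0 4E-BP1-cKO members. The 6 monocyte markers summed to 7 UMIs in the control members, 4 of them of Fn1, and to 0 in the 4E-BP1-cKO members, with Ccr2 and Ly6c2 at 0 in both. The 6 neutrophil markers summed to 6 UMIs, 4 of them of S100a9, and to 0, with S100a8 at 0 in both. The 8 markers of border macrophages summed to 1 and 4 UMIs, of which Mrc1 held 1 and 3, with Cd163 at 0 in both. Other lists held more UMIs in the members, at 74 and 20 for astrocytes (62 and 17 of them Slc1a3), 64 and 23 for oligodendrocytes (29 and 14 of them Mbp, Mog at 0 in both), 60 and 13 for B cells (53 and 11 of them Ighm, Ms4a1 at 0 in both) and 53 and 3 for endothelial cells (18 and 2 of them Pecam1). Their part in the results was not tested.

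Ribosome-poor cells of both kinds were shallow by their medians. The deepest of the 80 4E-BP1-cKO cells with Gm35188, however, held 35216 of the 228023 UMIs of its class. The members' median depth was 2208 UMIs and 1194 genes in control and 1714 UMIs and 988.5 genes in the 4E-BP1-cKO library, the ribosome-poor cells with Gm35188 had medians of 2592.5 and 2175.5 UMIs, and all other kept cells 3736.5 and 3720. After each cell was thinned to 872 UMIs, the median was 607 genes in the members of both libraries, beside 619 and 604 in cells with an RP share of 2.5% or more. The median RP share was 1.35% and 1.13%, and the mitochondrial share was 0.973% and 1.09%, against 0.867% and 0.678% in all other kept cells. Among ribosome-poor cells of either kind, the control cells with an RP share under 0.75% had a median of 3844 UMIs and those at 2 to 2.5% a median of 1557.5 UMIs. The nearest members to the limit stood at 2.47% and 2.45%, and the nearest cells outside with no more than 1 UMI of Gm35188 at 2.51% and 2.55%. Of the 69 and 29 barcodes that were not kept, 16 and 5 met the RP and Gm35188 limits. Within 2.0 to 2.5% there were 48 and 13 members, and 23 and 11 cells with no more than 1 UMI of Gm35188 lay between 2.5 and 3.0%.

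**Figure D1:**
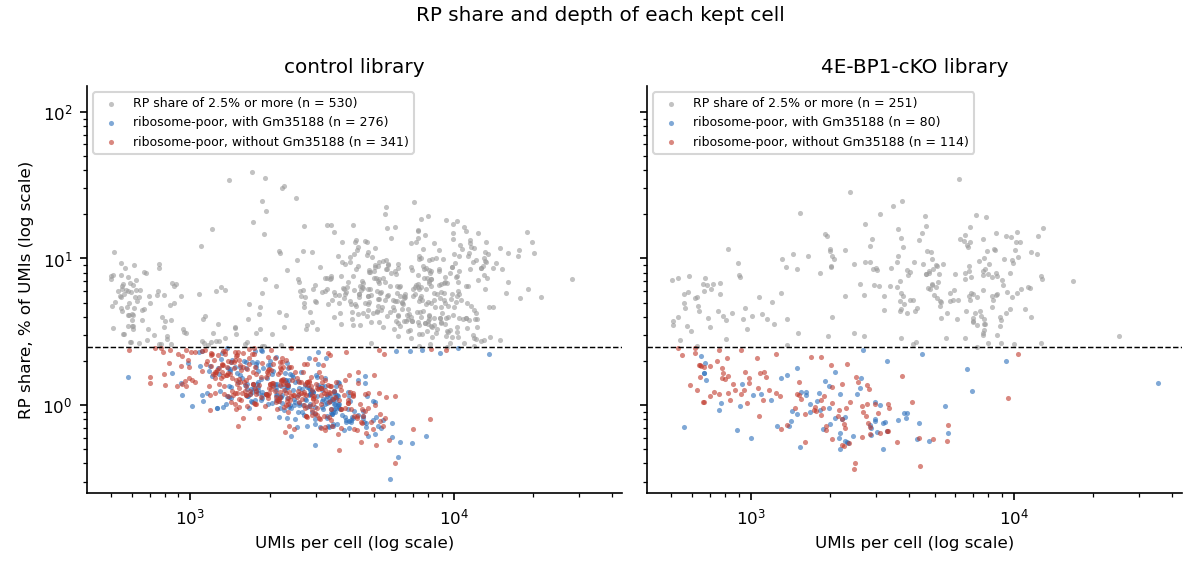
RP share (percent of UMIs, log axis) against UMIs per cell (log axis) for each kept cell of the control and the 4E-BP1-cKO library, with the limit of 2.5% dashed. Red points are the 341 and 114 ribosome-poor cells without Gm35188, blue points those with it, and grey points cells at or over the limit. The deepest member has 9395 UMIs in the control and 10375 in the 4E-BP1-cKO library.

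Of the genes given as markers of these cells, Il10 and Raver2 were higher in both libraries, Bag3 differed between the libraries, and Fam20c and P4htm were read too rarely to be placed. These genes were chosen with the members in view, so their levels are a description. Il10 encodes the anti-inflammatory cytokine IL-10 (mm10 chr1:131019845-131024970). Its level was 214 CPM (exact Poisson 95% interval 184 to 248) in the control members and 244 CPM (184 to 318) in the 4E-BP1-cKO members, against 53.4 and 66.3 CPM in all other kept cells. The members' level in each library stood 3.95-fold (95% interval 3.27 to 4.91) and 3.65-fold (2.60 to 5.17) above the other cells, and the intervals of the levels did not overlap.

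Raver2 encodes an RNA-binding partner of the splicing regulator PTB (chr4:101069038-101152370). It was at 152 CPM (127 to 181) and 164 CPM (116 to 227) in the members and at 38.5 and 54.3 CPM in all other kept cells, a ratio of 3.88 (3.10 to 5.03) and 2.99 (1.99 to 4.51). Bag3 encodes a co-chaperone of HSP70 (chr7:128523583-128546981). In the control library it was at 260 CPM in the members, 221 CPM in all other kept cells and 426 CPM in the ribosome-poor cells with Gm35188, so the members stood between them. Against all other kept cells this order turned, to a log2 ratio of -0.25 with 0 UMIs of Gm35188 and of -0.22 when cells were averaged. The 4E-BP1-cKO library had another order, with 351 CPM in the members, 109 in all other kept cells and 153 in the ribosome-poor cells with Gm35188. A single control member held 47 of the 222 Bag3 UMIs of its class.

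Fam20c, which encodes a kinase of secreted proteins (chr5:138755081-138810063), had 31 UMIs in the control members and 6 in the 4E-BP1-cKO members, and its ratio to all other kept cells was 2.20 (1.43 to 3.55) and 1.03 (0.357 to 2.45). P4htm, which encodes a transmembrane prolyl hydroxylase that acts on HIF (chr9:108578862-108598195), had 27 and 4 UMIs, all 27 of them in 10 cells, and a ratio of 1.98 (1.25 to 3.27) and 1.72 (0.432 to 5.61). For both genes the interval of the 4E-BP1-cKO ratio included 1.

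**Figure D2:**
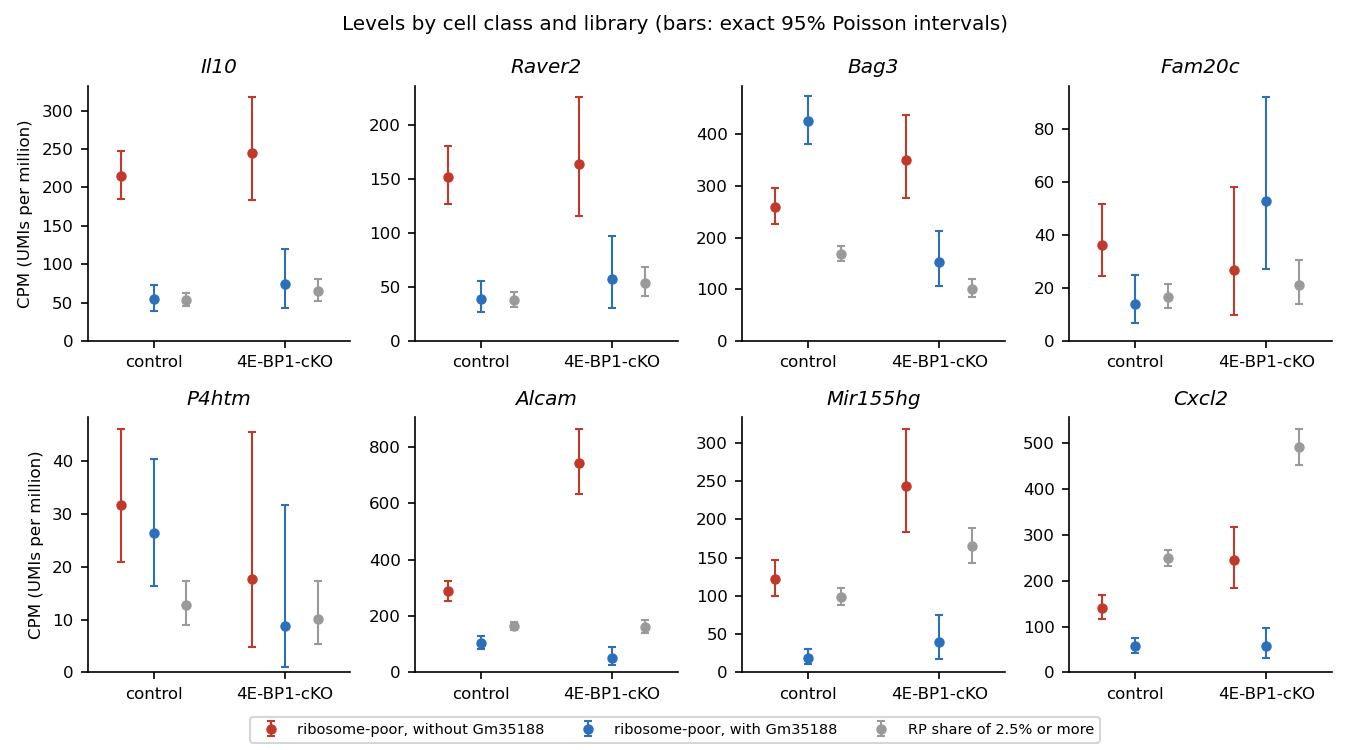
Level in CPM of Il10, Raver2, Bag3, Fam20c, P4htm, Alcam, Mir155hg and Cxcl2 in the summed UMIs of each cell class of the control and the 4E-BP1-cKO library, with exact 95% Poisson intervals as bars. Il10 and Raver2 are highest in the members (red) of both libraries, Bag3 changes its order between the libraries, and Cxcl2 in the members lies between the other classes.

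Most members carried few of these transcripts. None of the 5 marker genes was read in 158 of 341 control members (46.3%, 40.9 to 51.8) and 56 of 114 4E-BP1-cKO members (49.1%, 39.6 to 58.7), and 3 or more were read together in 8 and 5 members. Il10 was read in 89 control members (26.1%) and 27 4E-BP1-cKO members (23.7%), beside 14.4% and 19.0% of all other kept cells, which were deeper. No cell type that should lack Il10 was present in number, and free RNA could not be estimated because empty droplets were not analysed here. At 872 UMIs per cell, which left out 10 and 28 members, Il10 was read in 13.6% (10.1 to 17.8) and 16.3% (9.20 to 25.8) of the members, in 4.74% (2.55 to 7.98) and 6.94% (2.29 to 15.5) of the ribosome-poor cells with Gm35188, and in 2.87% and 3.23% of cells with an RP share of 2.5% or more. The intervals of the first pair of classes overlapped for 4E-BP1-cKO cells, as they did for Raver2 (8.30 to 24.5 and 0.868 to 11.7). Raver2 was read in 9.97% and 15.1% of the thinned members, 2.19% and 4.17% of the ribosome-poor cells with Gm35188, and 3.53% and 4.15% of cells with an RP share of 2.5% or more.

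Of the genes past 2-fold, more were lower than higher in the members than in all other kept cells. Of 4966 genes with at least 50 UMIs in each library, 73 (1.47% of genes tested) were over 2-fold higher in the members of both libraries and 393 (7.91%) were over 2-fold lower, RP genes and Gm35188 aside. Ratios were taken within each library on the log2(CPM + 1) scale, which understates the change of rare transcripts. The median log2 ratio over all tested genes was 0.05 for control and 0.10 for 4E-BP1-cKO cells, and 53.6% and 54.8% of them lay above 0. With TMM factors this median moved to -0.11 and -0.16 and the counts to 50 higher and 529 lower, and count minimums of 20, 200 and 1 UMI gave 144, 23 and 517 higher and 628, 114 and 1109 lower. Because the cells were chosen on their own UMIs, these counts describe the selected cells and test nothing.

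Nuclear-encoded genes of the respiratory chain, which makes the proton gradient for ATP synthesis, were lower together. Of 85 nuclear-encoded respiratory chain genes, 62 were tested, and 54 were over 2-fold lower in both libraries and 0 higher. Of all genes tested, 7.91% were lower and 1.47% higher. The median log2 ratio of these respiratory chain genes was -1.77 and -1.96 (-1.81 and -1.73 with genes at 0 UMIs set to 3 counts). Their summed level was 1628 and 1373 CPM in the members, 1810 and 1658 CPM in the ribosome-poor cells with Gm35188 and 5711 and 5724 CPM in cells with an RP share of 2.5% or more. Uqcrc2, a core subunit of complex III (chr7:120635189-120659523), had 13 UMIs in the control members and 0 in the 4E-BP1-cKO members, where the other kept cells held 162 and 72. In the 4E-BP1-cKO library it was at least 3.58-fold lower by a floor of 3 counts over the members. Uqcr11 of complex III and Atp5k of ATP synthase also had 0 UMIs in the 4E-BP1-cKO members, at least 4.92-fold and 3.28-fold lower.

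Of the 13 mRNAs of the mitochondrial genome itself, 11 were above 0 in both libraries and 0 passed 2-fold, with a median of 0.25 and 0.44. Of all tested genes, 53.6% and 54.8% lay above 0 in each library. Such shares, here and below, are per library, and the share above 0 in both at once can be no larger. Values were 0.42 and 0.85 for mt-Cytb and 0.33 and 0.60 for mt-Co3. The 13 mRNAs are what the mitochondrial share given above counts. Mapk3 (ERK1), Dbi, which binds acyl-CoA, the proteasome activator Psme1, Timm10b of mitochondrial import, Higd2a of complex IV assembly, Krtcap2 of the oligosaccharyltransferase and Lamtor2 of the Ragulator complex completed the lowest 10. Their ratios ran from -1.75 for Higd2a to -2.93 for Krtcap2 in the control library, and 9 of the 10 had 0 or 1 UMI in the 4E-BP1-cKO members.

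Messenger RNAs with a TOP tract other than those for RP genes, and short transcripts of housekeeping genes, were also lower. Of 20 such growth-associated mRNAs, 19 were tested and 14 were over 2-fold lower, where 7.91% of all genes tested were, with a median of -1.48 and -2.05. Among them were Tpt1, the translationally controlled tumor protein (-2.32 and -2.80), and Fau, which encodes a ribosomal protein fused to a ubiquitin-like sequence (-2.60 and -3.18). Fau encodes a part of the ribosome, and the rule did not count it. Of 20 short housekeeping transcripts 17 were lower, among them Tmsb4x, the actin-binding thymosin beta 4 (-2.32 and -2.75), and the actin-binding profilin Pfn1 (-2.12 and -3.68). Against the ribosome-poor cells with Gm35188, 0 of 7 tested TOP mRNAs and 0 of 14 tested housekeeping transcripts passed 2-fold, with medians of 0.24 and 0.13 and of 0.05 and -0.10. Few of all genes tested passed in this comparison, 1.26% higher and 0.164% lower.

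Translation factors and the proteasome followed in part. Of 28 tested initiation and elongation factors 6 were lower and 0 higher, with a median of -0.27 and -0.34. Over all genes tested, 7.91% were lower and 1.47% higher. The initiation factor subunit Eif3k was at -2.38 and -2.81. Of 31 tested proteasome genes 7 were lower, with a median of -0.86 and -0.75 that turned to 0.40, as the mean over the libraries, among genes with at least 200 UMIs. Of 23 tested genes of the mTORC1 pathway 2 were lower, a share near the 7.91% of all genes tested, and 0 higher, with a median of 0.09 and 0.21 that was -0.07, as the mean over the libraries, with TMM factors.

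Microglial identity genes were lower against all other kept cells. All 25 were tested and 16 were over 2-fold lower and 0 higher, where 7.91% and 1.47% of all genes tested were. P2ry12, the purinergic receptor of surveying microglia, was at 512 and 484 CPM in the members against 1201 and 1041 CPM in all other kept cells (-1.23 and -1.10). Cx3cr1, the fractalkine receptor by which the cells were sorted, was at 893 and 871 CPM against 2330 and 2146 CPM (-1.38 and -1.30). Csf1r, the receptor for CSF1, lay nearer, at 1332 and 1191 CPM against 1479 and 1395 CPM (-0.15 and -0.23). Against the ribosome-poor cells with Gm35188, 0 of 22 tested identity genes passed 2-fold, 13 lay below 0 and 2 above in both libraries, and their median was -0.10 and -0.27. Of all genes tested in this comparison, 1.26% were higher and 0.164% lower, and 49.9% and 48.6% lay above 0 in each library. At 872 UMIs per control cell, P2ry12 was read in 31.4% (26.5 to 36.7) of the members and 48.2% (42.1 to 54.3) of the ribosome-poor cells with Gm35188, and Cx3cr1 in 45.0% (39.6 to 50.6) and 58.8% (52.7 to 64.6). These intervals did not overlap. Those of 4E-BP1-cKO cells did, at 32.6% and 37.5% for P2ry12 and 48.8% and 47.2% for Cx3cr1. The latter rest on 86 and 72 cells, against 331 and 274 control cells, and are wider. Of 17 tested transcription factors of the lineage, 0 passed 2-fold against all other kept cells, with a median of -0.10 and -0.07.

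Of the listed nuclear or snoRNA-host long noncoding RNAs, 15 were tested against all other kept cells. Of these, 4 were lower and 0 higher, where 7.91% and 1.47% of all genes tested were. The list's median was 0.36 and 0.56. The nuclear RNA Malat1 was at 47902 and 53685 CPM in the members and at 32154 and 34209 CPM in all other kept cells (0.58 and 0.65), with Dleu2 at 0.92 and 0.81. The snoRNA hosts Gas5 (-1.03 and -1.25) and Snhg8 (-1.40 and -1.61) were among the 4 that were lower. Against the ribosome-poor cells with Gm35188, Malat1 was at -0.05 and 0.15. The summed level of the list was 53511 and 58958 CPM in the members and 53627 and 53157 CPM in those cells. Of 39 chromatin regulators tested against all other kept cells, 24 lay above 0 in both libraries and 0 passed 2-fold, with a median of 0.30 and 0.21. Of all tested genes, 53.6% and 54.8% lay above 0 in each library. Against the ribosome-poor cells with Gm35188, 7 of 28 tested chromatin regulators lay above 0 in both libraries and 13 below, with a median of -0.06 and -0.09.

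Lists were also drawn around the given markers, for chaperones (Bag3), oxygen sensing (P4htm), splicing (Raver2) and secretory kinases (Fam20c). Counts of lower and higher genes in these lists stand beside 7.91% and 1.47% of all genes tested. Of 24 tested chaperone and co-chaperone genes 3 were over 2-fold lower and 0 higher, with a median of -0.29 and -0.34, and the 3 were Bag1 (-1.99 and -3.83), the HSP40 gene Dnajb1 and Hsp90b1, the chaperone of the endoplasmic reticulum (-1.04 and -1.17). Of 11 tested genes of oxygen sensing 1 was lower, a share near that of all genes, namely the mitophagy receptor gene Bnip3l (-1.75 and -2.45), and Hif1a was at 0.44 and 0.41. Of 37 tested splicing regulators 1, Raver2, was higher and 0 lower, with a median of 0.06 and 0.11 that was -0.13, as the mean over the libraries, with TMM factors, and Ptbp3 of the PTB family was at 0.41 and 0.53. Only 3 of 15 genes of the secretory kinase and glycosaminoglycan list could be tested, Ext1, Ext2 and Xylt1 of glycosaminoglycan synthesis, and 0 passed 2-fold in both libraries. All 3 lay above 0 in both, with a median of 0.40 and 0.92, and the summed level of the list was 1083 and 1226 CPM in the members, 785 and 776 CPM in the ribosome-poor cells with Gm35188 and 620 and 622 CPM in cells with an RP share of 2.5% or more. Of 24 tested mRNA decay genes and 13 tested apoptosis genes, 0 passed 2-fold.

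The list of genes of disease-associated microglia that the study used, without its RP genes, was lower in part. Of its 87 genes 66 were found in the files and 50 were tested. Of these, 16 were over 2-fold lower and 0 higher, where 7.91% and 1.47% of all genes tested were. The list's median was -0.49 in both libraries, and the ferritin light chain gene Ftl1 was at -1.60 and -1.98. Against the ribosome-poor cells with Gm35188 28 genes of the list were tested, 0 passed 2-fold and 19 lay above 0 in both libraries, with a median of 0.27 and 0.15. Of all genes tested in this comparison, 1.26% were higher and 0.164% lower, and 49.9% and 48.6% lay above 0 in each library.

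**Figure D3:**
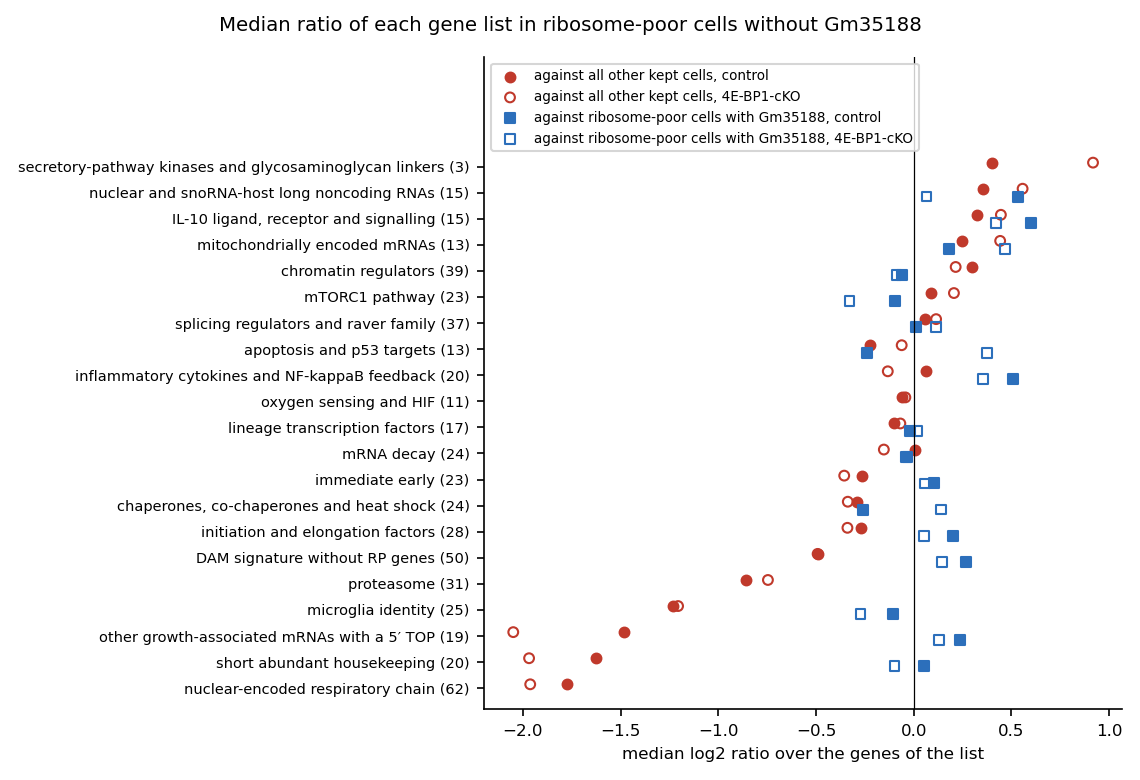
Median log2 ratio (x axis) of each gene list in the members, against all other kept cells (red circles) and against ribosome-poor cells with Gm35188 (blue squares), filled for the control and open for the 4E-BP1-cKO library, with the number of genes tested against all other kept cells in brackets. The respiratory chain, TOP and housekeeping lists lie lowest against all other kept cells, and the TOP and housekeeping lists lie near 0 against the ribosome-poor cells with Gm35188.

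Genes with short spans were lower and genes with long spans higher. Of the 4966 tested genes, 4945 were found in GENCODE vM39 by Ensembl identifier. In the 1237 genes with the shortest spans (median 9198 bases) the median log2 ratio was -0.53 and -0.59 and 23.4% of genes were over 2-fold lower. In the 1236 genes with the longest spans (median 137708 bases) the median was 0.32 and 0.39 and 0.162% were lower. Spearman's rank correlation between span and ratio was 0.48 and 0.43 across genes, which share libraries and depth and are not replicates.

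The genes over 2-fold higher were often noncoding or antisense to another expressed gene. Of 72 found in the annotation, 48.6% were long noncoding RNAs, against 3.50% of all tested genes, and 80.6% overlapped an expressed gene on the opposite strand, against 31.9%. Of 123 tested long noncoding RNAs with such an overlap 26.8% were higher, and of 50 without one 4% were. For 48 of the 58 overlapping genes the partner had more UMIs, and of 55 tested partners 0 passed 2-fold, with a median of 0.33 and 0.40. The strand setting of the counting was not given in the sources used here. Whether reads of such a gene came from its partner was not tested.

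The 10 highest genes held 6 that begin with Gm or end in os, names given to transcripts without an assigned function or to opposite-strand RNAs. Slc24a1, a sodium, potassium and calcium exchanger (chr9:64922861-64951620), was at 160 and 129 CPM in the members and at 35.2 and 34.5 CPM in all other kept cells (2.16 and 1.87), and like Il10 it overlapped no expressed gene on the opposite strand. Gm14023, which lies opposite Il1a and Il1b, was at 845 and 897 CPM against 236 and 259 CPM (1.84 and 1.79), while Il1a was at 0.23 and 0.04 and Il1b at -1.43 and -0.50. Scpep1os was at 2.05 and 1.55, and its partner Scpep1, a serine carboxypeptidase, at 0.29 and 0.28. Gm20470, Gm27008, Gm19710, Gm34408, Morn1 and the dynein light chain gene Dnal1 made up the rest, between 1.14 and 2.60. Dnal1 turned to -0.55 in the 4E-BP1-cKO library when members were cells of at least 2000 UMIs with under 300 CPM of Gm35188. Raver2 also has such a partner, the kinase gene Jak1, at 0.72 and 0.45, so its level carries the same limit.

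**Figure D4:**
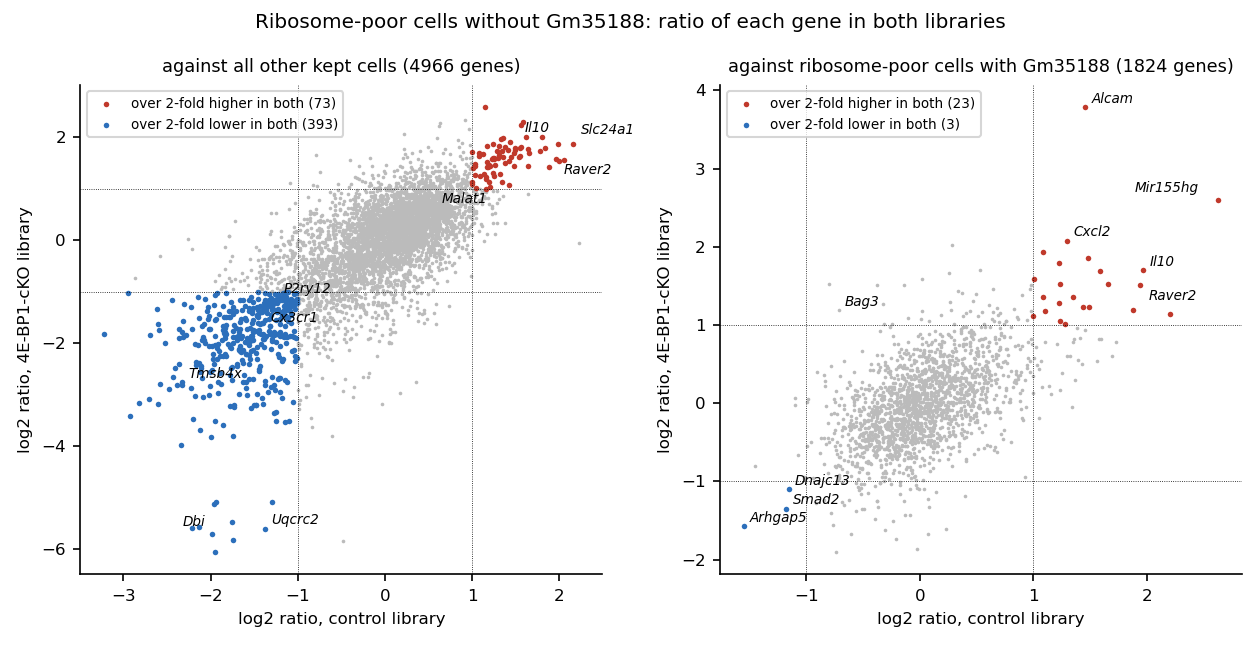
Log2 ratio of each tested gene in the members, control library on the x axis and 4E-BP1-cKO library on the y axis, against all other kept cells (left) and against ribosome-poor cells with Gm35188 (right), with dotted lines at 2-fold. Genes past 2-fold in both libraries number 73 higher (red) and 393 lower (blue) on the left and 23 and 3 on the right, and Il10 and Raver2 are among the higher genes of both.

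IL-10 binds a receptor of IL10RA and IL10RB and acts through JAK1, TYK2 and STAT3. Of 15 tested genes of this pathway 1, the given marker Il10, passed 2-fold against all other kept cells. Of all genes tested, 1.47% were higher and 7.91% lower. The median of the 15 pathway genes was 0.32 and 0.45, and 11 lay above 0 in both libraries. In each library taken singly, 53.6% and 54.8% of all tested genes lay above 0. The receptor gene Il10ra was at 307 and 422 CPM in the members and at 245 and 256 CPM in all other kept cells (0.32 and 0.72). Stat3 was at 1611 and 1350 CPM against 841 and 763 CPM (0.94 and 0.82), and Sbno2, a STAT3-induced corepressor, at 0.997 and 0.65. Socs3, the feedback inhibitor of STAT3 signalling, was at -0.12 and -0.37.

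Of 20 tested cytokine and NF-kappaB genes 3 were over 2-fold lower and 0 higher against all other kept cells, where 7.91% and 1.47% of all genes tested were, with 10 above 0 and 9 below in both libraries. Genes for NF-kappaB subunits did not pass 2-fold in both libraries, with Nfkb1 at 1705 and 1870 CPM against 819 and 999 CPM (1.06 and 0.90), Rel at 0.68 and 0.73 and Relb at 0.70 and 0.82. The chemokine genes Ccl2 (-1.38 and -1.87), Ccl3 (-1.14 and -1.45) and Ccl4 (-1.12 and -1.52) were the 3 that were lower, and Nfkbia, the inhibitor of NF-kappaB, was at -0.998 and -1.43. Of 23 tested immediate early genes 1 was lower, a share under the 7.91% of all genes tested. It was Fos, at 947 and 1000 CPM against 2454 and 2921 CPM (-1.37 and -1.55).

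The ribosome-poor cells with Gm35188 were the nearest cells, and few genes separated the members from them. In the 4E-BP1-cKO library, 1 of these 80 cells held 35216 of their 228023 UMIs. Its part in the values against this class was not tested. Of 1824 genes with at least 50 UMIs over both classes in each library, 23 (1.26% of genes tested) were over 2-fold higher in the members of both libraries and 3 (0.164%) were lower. The 23 became 46, 2 and 550 with count minimums of 20, 200 and 1 UMI, and 15 with the limit of 300 CPM of Gm35188. Of the 73 genes higher than in all other kept cells, 48 could be tested here and 6 were higher here too. Of the 393 lower genes 51 could be tested and 1 was lower here too. Both comparisons used the same members, and the cells with Gm35188 are part of all other kept cells, so this overlap is not independent. These numbers rest on cells that the rule separated by Gm35188 alone.

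Alcam, a cell adhesion molecule of the immunoglobulin family (chr16:52248996-52453081), was at 288 and 742 CPM in the members and at 104 and 52.6 CPM in the ribosome-poor cells with Gm35188 (1.45 and 3.79). Of its 167 UMIs in the 4E-BP1-cKO members, 79.6% came from 10 cells. Mir155hg, the host transcript of the microRNA miR-155 (chr16:84713023-84715245), was at 122 and 244 CPM against 18.9 and 39.5 CPM (2.63 and 2.60). Mir155hg overlaps Mrpl39 on the opposite strand, so its level carries the limit given above for such genes. Cxcl2, a neutrophil-attracting chemokine (chr5:90903899-90905938), was at 140 and 244 CPM against 56.6 and 57.0 CPM (1.30 and 2.08), yet lower than in all other kept cells, at 211 and 425 CPM.

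Il10 (1.97 and 1.70) and Raver2 (1.94 and 1.51) were the other leading genes. Among the rest of the 23, named here after their values were seen, were the kinase gene Pim1 (2.20 and 1.14), the integrin gene Itga5 (1.58 and 1.69), the AP-1 gene Fosl2 (1.66 and 1.52) and the protease gene Furin (1.44 and 1.23). Of 15 tested cytokine and NF-kappaB genes 11 lay above 0 in both libraries, with 1 over 2-fold higher and a median of 0.51 and 0.35. Of all tested genes 1.26% were higher, 49.9% and 48.6% lay above 0 in each library, and the median was -0.00283 and -0.0192. Nfkb1 was at 1.39 and 0.97 and Rel at 0.66 and 0.83.

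Of the 3 lower genes, Arhgap5 (chr12:52503763-52571978) was at 323 and 311 CPM in the members and at 946 and 925 CPM in the ribosome-poor cells with Gm35188 (-1.55 and -1.57). Gm35188 overlaps Arhgap5 on the opposite strand, so this value is not independent of the rule. The others were Smad2, a mediator of TGF-beta signalling (-1.17 and -1.35), and Dnajc13, of endosomal transport (-1.15 and -1.09).

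The binding motif of NF-kappaB, known as the kappaB site, was looked for in the RefSeq promoter windows of GRCm38.p6, from 250 bases before to 50 bases after each gene start, on both strands with overlapping matches allowed. It was found in 4 of the 19 higher genes with a window (21.1%), in 15.6% of the tested genes with a window and in 9.55% of all genes with one. The 4 were Cxcl2, Fosl2, Hivep2 and Zc3h12c. Cxcl2 was among the 5 leading genes and held 2 overlapping matches, at positions -97 on the strand of the gene and -96 on the opposite strand, and the first is shown. The 30 bases lie at chr5:90903792-90903821 on the plus strand, with the letters of the first match in capitals and positions counted from the gene start.
Cxcl2: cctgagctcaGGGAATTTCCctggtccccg
A match describes letters and was not tested as a site.

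The members were not uniform in these genes. Raver2 was read in 30.3% of the 89 control members with Il10 and in 13.9% of the 252 without, and in 33.3% of 27 and 16.1% of 87 in the 4E-BP1-cKO library, where the intervals (16.5 to 54.0 and 9.09 to 25.5) overlapped and the cells with Il10 were deeper, with a median of 2166 against 1373 UMIs. Mir155hg was read in 36.8% (24.4 to 50.7) of the control members with Alcam and 10.2% of those without, and in 56.5% (34.5 to 76.8) and 12.1% in the 4E-BP1-cKO library. Cells with Alcam were deeper, with medians of 2645 against 2186 UMIs and 2648 against 1473 UMIs, and the part of depth in this was not tested. Bag3 was read in 12.4% (6.33 to 21.0) of control members with Il10 and 21.0% (16.2 to 26.6) of those without, and in 25.9% and 21.8% in the 4E-BP1-cKO library, with overlapping intervals in both.

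Levels were also followed along the RP share itself, over kept cells of either Gm35188 level. In control cells Il10 lay between 57.9 and 201 CPM in the 6 ranges under the limit and between 18.5 and 72.9 CPM in the 5 ranges over it. In 4E-BP1-cKO cells it lay between 56.1 and 324 CPM under the limit and between 17.9 and 91.5 CPM over it, so single ranges overlapped in both libraries. Malat1 in control cells was at 40532 CPM under 0.75%, at 51831 CPM between 1.5 and 2% and at 20018 CPM from 10% on. In 4E-BP1-cKO cells it was at 58195 CPM between 1.5 and 2%. It was at 36331 CPM there between 2 and 2.5% and at 37069 CPM between 4 and 6%, so it did not fall evenly.

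**Figure D5:**
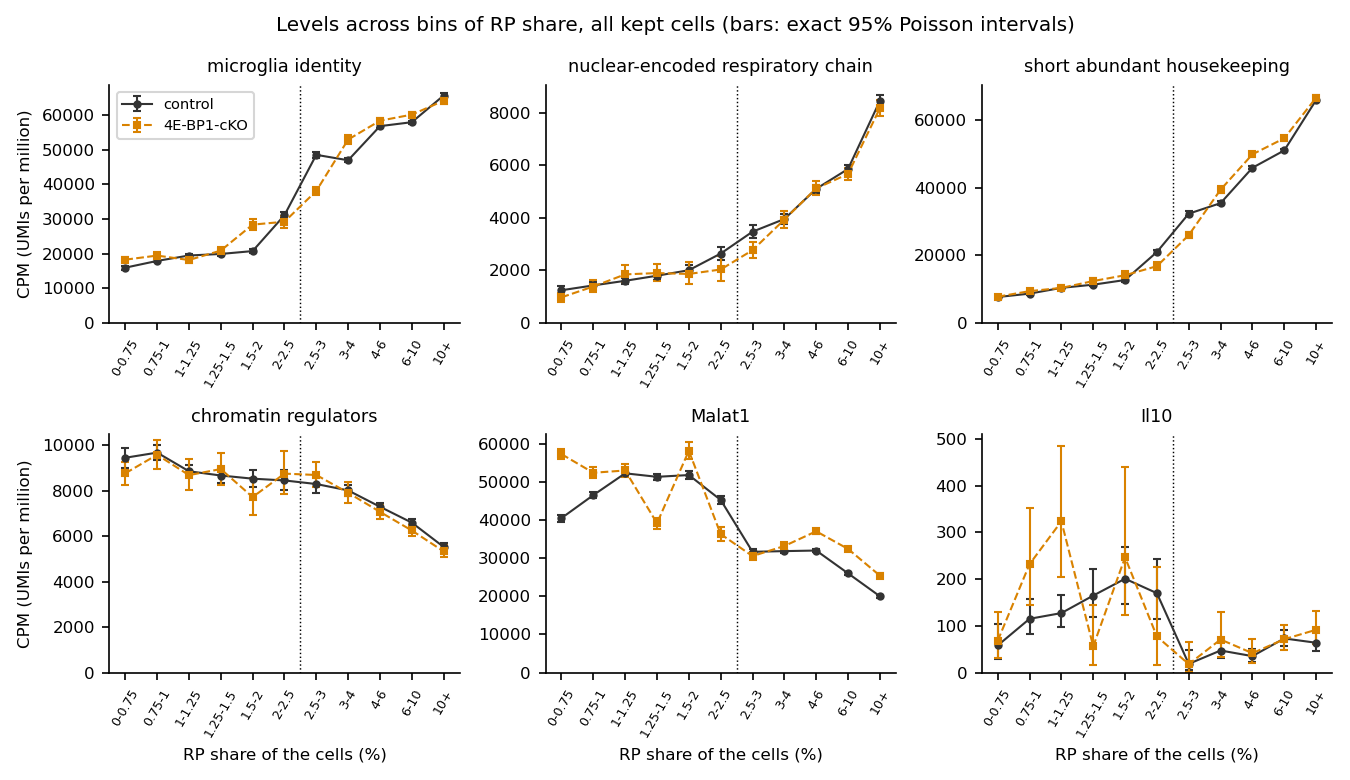
Summed level in CPM of 4 gene lists, Malat1 and Il10 by range of RP share (percent), for kept cells of the control (black) and the 4E-BP1-cKO library (orange), with exact 95% Poisson intervals as bars and the limit of 2.5% dotted. The identity, respiratory chain and housekeeping lists are highest at the highest RP share, and Il10 reaches 201 and 324 CPM under the limit.

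Between the libraries, the members made up 4.11 percentage points less of the kept cells in the 4E-BP1-cKO library (difference -4.11, Newcombe 95% interval -8.81 to 0.859), an interval that includes 0. The ribosome-poor cells with Gm35188 made up less as well (difference -6.09, -10.3 to -1.57), and the members were 55.3% (51.2 to 59.2) and 58.8% (51.5 to 65.8) of all ribosome-poor cells. For the members, the interval was below 0 under 3 alternatives and included 0 under the others. The difference was -7.90 (-12.5 to -2.61) for under 300 CPM of Gm35188 in cells of at least 2000 UMIs. It was -6.77 (-11.7 to -1.54) for more than 500 genes and -10.5 (-16.5 to -3.89) in cells of 2000 to 8000 UMIs. All 3 left out cells with few UMIs or genes. At least 2000 UMIs were held by 196 of 341 control members and 47 of 114 4E-BP1-cKO members. Among all other kept cells, 603 of 806 and 234 of 331 held as many. The part of depth was not tested, and cells of 1 library are not replicates of a genotype. Of 3498 genes with at least 50 UMIs over the members, 46 (1.32% of genes tested) were over 2-fold higher in the 4E-BP1-cKO members with a counting interval off 1, and 84 (2.4%) were lower. With minimums of 20, 200 and 1 UMI these counts became 163, 2 and 298 higher and 160, 7 and 181 lower. Il10 (ratio 1.14, 0.828 to 1.55) and Raver2 (1.08, 0.728 to 1.57) had intervals that included 1. The median log2 ratio was -0.03.

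Atp6v1b2, a subunit of the vacuolar proton pump, was at 138 CPM in the control members and 378 CPM in the 4E-BP1-cKO members (2.72-fold, 2.04 to 3.64), where all other kept cells were at 119 and 109 CPM. Alcam was 2.57-fold higher (2.10 to 3.15), against 152 and 145 CPM in all other kept cells. Sh3bp5, Traf6, a signal transducer of Toll-like receptors, and Tlr2, one of those receptors, were higher by 1.24, 1.23 and 1.22 on the log2 scale.

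Tmem119, the microglial gene whose promoter drives the Cre, was lower, at 313 CPM in the control members and 97.7 CPM in the 4E-BP1-cKO members, and it was at 460 and 149 CPM in all other kept cells. Gm19951 was lower in the members (148 and 22.2 CPM) and in all other kept cells (105 and 21.2 CPM). Ddb2, a DNA damage recognition gene, was at 136 and 31.1 CPM in the members but at 28.4 and 32.5 CPM in all other kept cells. Setdb2 and Man2c1os were at -1.71 and -1.33 on the log2 scale. The counts for these 5 lower genes ran from 5 to 22 UMIs in the 4E-BP1-cKO members.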

How the data were processed

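Microglia of 2 libraries, 1 per genotype, were measured by 10x 3′ single-cell RNA sequencing. The authors deposited a matrix of whole-number UMI counts for each library. The file headers and the submitters' processing notes name Cell Ranger 8.0.1 and mm10, and no annotation release is named in the sources used here. The members and gene lists were chosen with earlier results of these data known. UMIs were summed over the cells of each class and library (members: 854196 control and 225110 4E-BP1-cKO UMIs; all other kept cells: 3949366 and 1509222), scaled to CPM and compared as log2(CPM + 1). A gene was tested with at least 50 UMIs in each library and called over 2-fold the same way in both. Exact 95% Poisson, conditional binomial and Clopper-Pearson intervals cover counting error only, and no p-values were computed.

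Named genes were the given markers, list members as examples, the 10 highest and 10 lowest against all other kept cells (at least 200 UMIs, intervals off 1), 5 and 5 against ribosome-poor cells with Gm35188, and 5 and 5 between libraries (at least 100 UMIs); others were named after their values were seen. The 2 libraries shared 0 barcodes. Doublets were not removed: Scrublet called 4 control and 11 4E-BP1-cKO cells, 0.349% and 2.47%. Gene spans and overlaps came from GENCODE vM39 (GRCm39) by identifier, and coordinates from RefSeq GRCm38.p6. Python 3.11.15, numpy 2.4.6, scipy 1.17.1, pandas 2.3.3, scanpy 1.11.5, R 4.3.3 and edgeR 4.0.16 (TMM factors only) were used. Only the call rule and counting intervals of the comparison with all other kept cells were tested on simulated data, drawn with Poisson error alone. Alternatives changed the cell limits, scaling, pseudocount and count minimum.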

Additional observations from a re-analysis of the deposited data

Results flagged for a closer look

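Some genes differed from the comparison cells in opposite directions in the 2 libraries, with both counting intervals off 1. The difference between the libraries was not tested, since each genotype had 1 library. Against all other kept cells, the log2 ratio of the heat shock gene Hspb1 was 0.37 in the control members and -1.03 in the 4E-BP1-cKO members, and that of the HSP70 gene Hspa1b was -0.52 and 0.26. The lysosomal gene Pld3 was at -0.62 and 0.94, the splicing gene Luc7l3 at 0.37 and -1.20, and the proapoptotic gene Pmaip1 at -0.58 and 0.82. Against the ribosome-poor cells with Gm35188, Bag3 was at -0.71 and 1.19, Pmaip1 at -0.80 and 1.52, Gm34408 at -0.32 and 1.01, and Malat1 at -0.05 and 0.15. These 4E-BP1-cKO values carry the limit of the 1 deep cell given above.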

How the results depend on the processing

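Il10 kept its direction against all other kept cells under every alternative tried, with lowest log2 ratios of 1.75 in the control and 1.51 in the 4E-BP1-cKO library, and so did Raver2, with lowest values of 1.74 and 1.28. The members' share of control cells, 29.7%, became 25.5% with an RP limit of 2.0%, 22.1% with 0 UMIs of Gm35188, 39.8% with up to 3, and 21.8% with under 300 CPM of Gm35188 in cells of at least 2000 UMIs. The 4E-BP1-cKO share, 25.6%, became 21.3%, 35.1% and 13.9% under the last 3 of these and 19.8% in cells of 2000 to 8000 UMIs, where the difference in shares moved from -4.11 to -10.5 points. Count minimums of 20, 200 and 1 UMI moved the 73 higher genes to 144, 23 and 517, the 393 lower genes to 628, 114 and 1109, the 23 higher against ribosome-poor cells with Gm35188 to 46, 2 and 550, and the 3 lower to 9, 1 and 489. They moved the 46 genes higher in the 4E-BP1-cKO members to 163, 2 and 298 and the 84 lower to 160, 7 and 181, and a pseudocount of 10 CPM moved the 46 to 26. Cells of 2000 to 8000 UMIs gave 259 lower genes. Against ribosome-poor cells with Gm35188, the limit of 300 CPM gave 15 higher and 6 lower, and up to 3 UMIs gave 1 lower. Bag3 against all other kept cells turned in the control library, to -0.25 with 0 UMIs of Gm35188 and -0.22 as a mean over cells, Dnal1 turned to -0.55 in the 4E-BP1-cKO library with the limit of 300 CPM, and the proteasome median turned to 0.40 with at least 200 UMIs; the cause was not tested. TMM factors moved the median of all genes to -0.11 and -0.16, and the splicing list's median, as the mean of both libraries, to -0.13 and the mTORC1 list's to -0.07. No paired analysis was possible because each genotype had 1 library. The 4E-BP1-cKO members held 225110 UMIs, against 854196 in the control members, so their counting intervals are wider.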
